A study of Mus musculus with 6 samples.

Results

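WT mice given vehicle were compared with vehicle-treated mice of the genotype labelled SOD1-G93A, which carry a transgene for a mutant form of superoxide dismutase 1. Spinal cords were dissociated with an enzyme, freed of myelin and spun on a density gradient to collect live cells. These were profiled by Drop-seq, in which droplets pair single cells with beads that carry a barcode for the cell and a unique molecular identifier (UMI) for each captured RNA. The libraries compared were WT-Veh 1 and WT-Veh 2 against SOD1-Veh 1 and SOD1-Veh 2, 4 of the 6 libraries of the study. The other 2 libraries came from SOD1-G93A mice given Necrostatin-1s, which inhibits the kinase RIPK1, and entered the fit to estimate the spread between libraries. The labels give no age, sex, disease stage, length of treatment or transgene promoter, nor whether both libraries of a group are different animals. Each p-value therefore rests on the spread between libraries alone, and that spread may be technical.

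A barcode needed 200 or more detected genes, with mitochondrial transcripts (mt- genes) at no more than 20% of its UMIs. It was then dropped if it held 3 or more UMIs summed over 7 skeletal muscle genes (Acta1, Myl1, Tnnc2, Tnnt3, Ckm, Mylpf and Myh4). Of 21919 barcodes in the series, 15350 were in the vehicle libraries, 1905 of those passed the first limits, and 1825 were kept. The kept barcodes numbered 515 and 554 in WT-Veh and 380 and 376 in SOD1-Veh, with 563506, 510243, 415377 and 380981 summed UMIs. The median kept barcode held 576 to 724 UMIs, so that single barcodes were shallow and libraries were compared by their sums. No kept barcode sequence was shared between any of these 4 libraries.

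Mutant SOD1 causes a familial form of amyotrophic lateral sclerosis, in which motor neurons of the cord degenerate. The mutant protein misfolds, and its expression in neurons, astrocytes, oligodendrocytes and microglia is known to contribute to disease in mice. Microglia, the resident macrophages of the cord, are known to lower their surveillance genes and to raise lipid-handling, lysosomal and lectin genes around degenerating neurons, a pattern called disease-associated.

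Muscle RNA separated SOD1-Veh from WT-Veh before any other comparison. The rule dropped 19 barcodes of SOD1-Veh 1 (4.76% of those past the first limits) and 61 of SOD1-Veh 2 (13.96%), and none of either WT-Veh library. It also dropped none of either library given Necrostatin-1s, which share the SOD1-G93A genotype. The dropped barcodes carried 4176 and 8962 UMIs of the 7 genes, with a median of 168 and 101 per barcode, against 3 at the limit of the rule. Just inside and outside that limit, 1 and 7 dropped barcodes held exactly 3 such UMIs and 4 and 18 kept barcodes held exactly 2.

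The rule did not bring the muscle signal of SOD1-Veh to that of WT-Veh. In kept barcodes the 7 genes came to 7.30 and 5.66 CPM in WT-Veh and to 91.7 and 292 in SOD1-Veh. The SOD1-G93A libraries given Necrostatin-1s had 7.24 and 7.81. CPM are UMI counts scaled to a library total of 1000000, in kept barcodes with a further library factor. In barcodes with under 100 genes, which stand for free RNA, CPM are given without that factor. There the 7 genes were at 5.59 and 0 CPM in WT-Veh and 374 and 1053 in SOD1-Veh, so muscle RNA was also outside the dropped barcodes. The 36 other muscle genes in the tables gave a summed CPM of 184 and 213 in WT-Veh and 268 and 424 in SOD1-Veh in kept barcodes, and of these only 3 were abundant enough to test, with none called. These 3, with log2 fold changes of SOD1-Veh over WT-Veh and standard errors, were Tpm1, a tropomyosin (0.70 ± 0.34, adjusted p = 0.641), Pvalb, a calcium buffer of fast fibres and some neurons (0.47 ± 0.72, 0.923), and Pygm, the muscle glycogen phosphorylase (-0.97 ± 0.56, 0.711). The 7 genes of the rule were left out of the tests. WT-Veh 2 also stood apart, in that it held 163 neuron-like barcodes, against 33 in WT-Veh 1. Some results are given with and without it, but most gene lists over all kept barcodes are given with it alone.

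**Figure D1:**
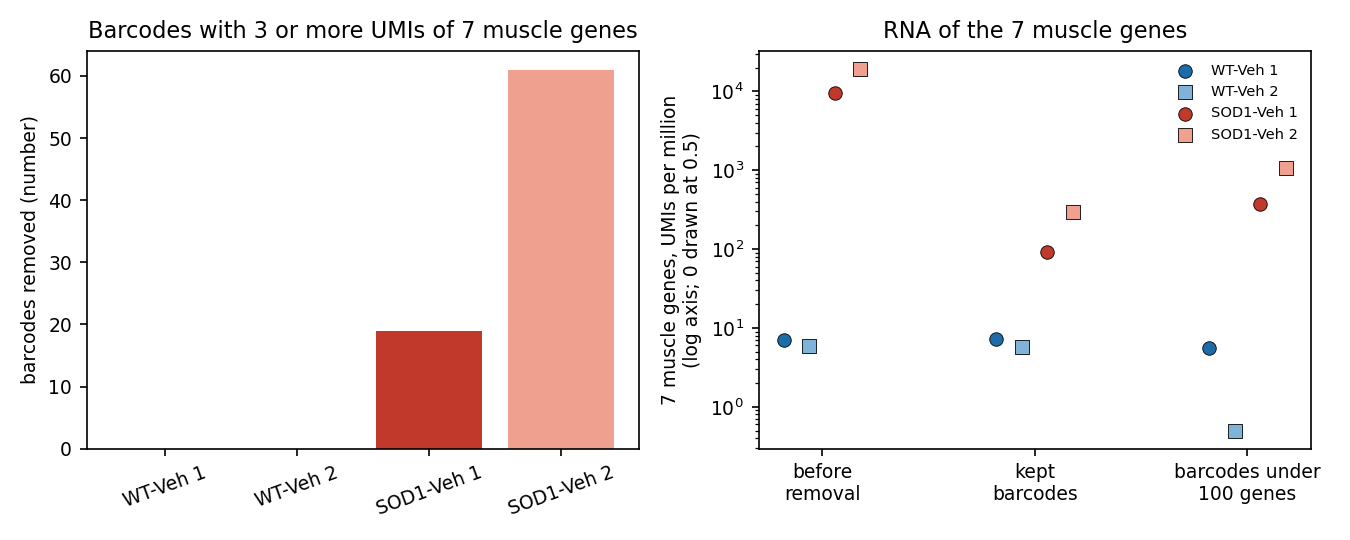
Left, number of barcodes removed by the muscle rule in each library. Right, CPM of the 7 muscle genes on a log axis before removal, in kept barcodes and in barcodes with under 100 genes, 1 point per library. Only the values in kept barcodes include the library factor. The rule removed 19 and 61 barcodes from SOD1-Veh and 0 from WT-Veh, and the SOD1-Veh points stay above the WT-Veh points in all 3 sets.

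Sod1, the targeted gene, was read first as a check of the labels. The tables hold a single Sod1 entry, so transcripts of the transgene and of the mouse gene are not separated. It reached 254 and 174 CPM in WT-Veh and 4092 and 5994 in SOD1-Veh after scaling by the library factor, from 139 and 92 UMIs in WT-Veh and 1740 and 2176 in SOD1-Veh. Both SOD1-Veh libraries were far above both WT-Veh libraries, a direction that goes with the SOD1-G93A label. The fold was 23.6 (log2 fold change 4.56 ± 0.34, adjusted p = 7.57e-06). In free RNA its CPM was 97.8 and 78.9 in WT-Veh and 3236 and 4230.1 in SOD1-Veh, so the same gap stood there. Within a class of barcodes CPM are scaled to the UMIs of that class. Erythroid-like barcodes held 52.5% of Sod1 UMIs, with a class CPM of 221 and 260.0 in WT-Veh and 9191 and 10134 in SOD1-Veh. In oligodendrocyte-like barcodes the class CPM was 480.0 and 101 in WT-Veh and 7995 and 10218 in SOD1-Veh. In microglia-like barcodes it was 113 and 101 in WT-Veh and 1728 and 1679 in SOD1-Veh.

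With muscle barcodes removed, few genes passed the test over the whole cord preparation. Sod1 and Lpl were among the genes that were higher in SOD1-Veh, and 3 transcripts typical of neurons, Meg3, Miat and Snhg11, were lower. Of 7509 genes tested, 6 were called (0.0799%), 3 in each direction (0.04% each), and 598 had an unadjusted p under 0.05. In a sum over all barcodes, fewer cells of a type and less RNA per cell cannot be told apart. With the muscle barcodes left in, 44 genes were called, 34 higher and 10 lower. Of the 34, 22 were on the list of other muscle genes, 26 were no longer abundant enough to test after removal, and 3 were still called. With a stricter limit of 1 muscle UMI per barcode, 4 genes were called, Sod1, Meg3, Miat and Snhg11, while Lpl was at 3.00 (adjusted p = 0.0956). Both SOD1-Veh libraries lay on the same side of both WT-Veh libraries for 2697 of the 7509 genes (35.9%), 1367 with SOD1-Veh higher (18.2%) and 1330 with WT-Veh higher (17.7%), so a gap between libraries is common in 2 against 2.

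Lpl encodes lipoprotein lipase, which releases fatty acids from lipoproteins and is a marker of disease-associated microglia. It had 9 and 1 UMIs in WT-Veh and 44 and 35 in SOD1-Veh, or 16.4 and 1.89 CPM in WT-Veh and 103 and 96.4 in SOD1-Veh. Both SOD1-Veh libraries lay above both WT-Veh libraries, and Lpl rose 10.6-fold (3.40 ± 0.52, adjusted p = 0.0196). Its UMIs came from 18 barcodes in SOD1-Veh 1 and 6 in SOD1-Veh 2, where a single barcode held 20 of 35. Microglia-like barcodes held 74.2% of its UMIs over the 4 libraries. Lpl was near 0 in free RNA, with a CPM of 0 and 2.72 in WT-Veh and 3.6 and 0 in SOD1-Veh.

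The called genes that fell are RNAs abundant in neurons. Meg3, an imprinted long non-coding RNA, reached 808 and 3489 CPM in WT-Veh and 146 and 140.5 in SOD1-Veh. Snhg11, a host gene of small nucleolar RNAs, reached 319 and 1403 CPM in WT-Veh and 72.9 and 60.6 in SOD1-Veh, and Miat, a nuclear non-coding RNA, 98.5 and 300.2 CPM in WT-Veh and 14.1 and 5.51 in SOD1-Veh. In each case both SOD1-Veh libraries were below both WT-Veh libraries, and WT-Veh 2 was far above WT-Veh 1. Meg3 fell 14.97-fold (-3.90 ± 0.57, adjusted p = 0.0196), Miat 19.3-fold (-4.27 ± 0.64, 0.0196) and Snhg11 12.8-fold (-3.68 ± 0.58, 0.0226).

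These RNAs moved with the number of neuron-like barcodes, which set WT-Veh 2 apart. Neuron-like barcodes, of which 163 of 252 over the 6 libraries came from WT-Veh 2, made up 6.41% of WT-Veh 1, 29.4% of WT-Veh 2, 3.42% of SOD1-Veh 1 and 1.86% of SOD1-Veh 2. They held 75.5% of Meg3 UMIs, 86.0% of Snhg11 and 88.7% of Miat. In free RNA the CPM of Meg3 was 1003 and 3464 in WT-Veh and 202 and 209 in SOD1-Veh, with WT-Veh 2 again highest and both SOD1-Veh libraries lowest. Within neuron-like barcodes the class CPM of Meg3 was 15852 and 17258 in WT-Veh and 6221 and 4518 in SOD1-Veh. That of Miat was 2282 and 1733 in WT-Veh and 848 and 645 in SOD1-Veh. The SOD1-Veh values rest on 13 and 7 barcodes, and these genes helped to form the class. Without WT-Veh 2, all 6 genes were still called, with Meg3 at -2.50, Miat at -3.26, Snhg11 at -2.25 and Lpl at 2.59, and 11 genes were called in all; without WT-Veh 1, 178 were called, 143 of them lower. Without SOD1-Veh 1 or SOD1-Veh 2, Sod1 alone was called. Meg3 was then -3.89 (adjusted p = 0.287) and -3.85 (0.796), Miat -5.08 (0.225) and -3.77 (0.796), Snhg11 -3.78 and -3.53 (not called in either), and Lpl 3.37 (0.225) and 3.47 (0.303).

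**Figure D2:**
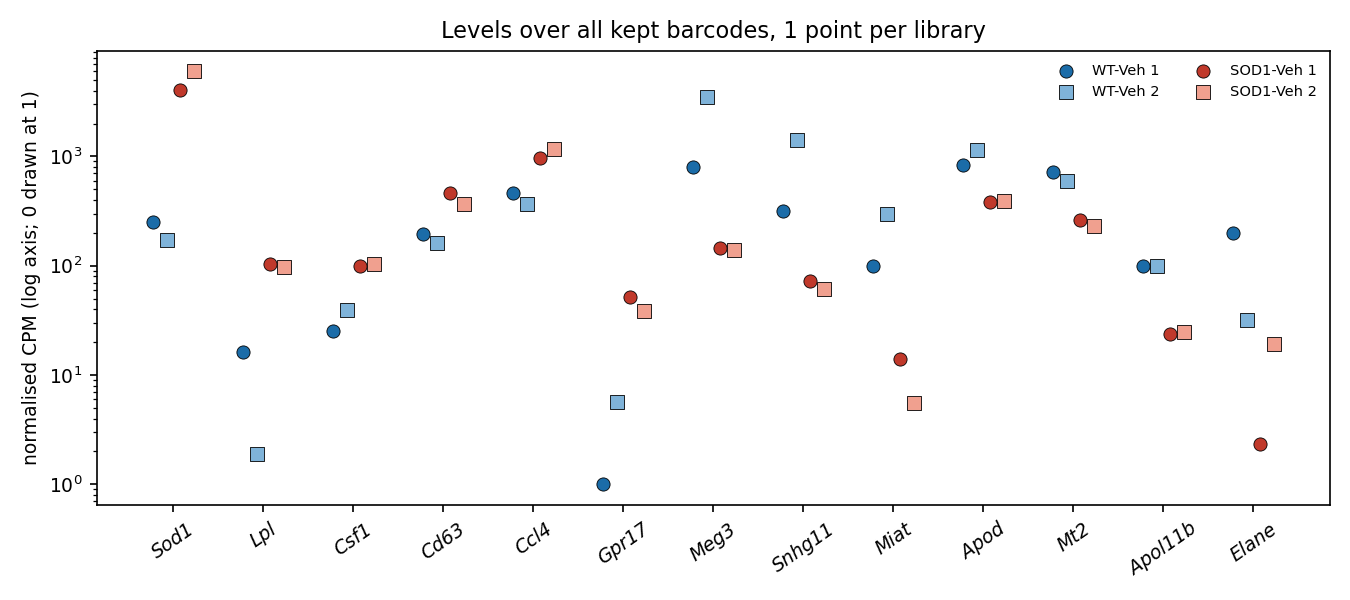
Normalised CPM on a log axis over all kept barcodes for 13 named genes, 1 point per library, with 0 drawn at 1. The SOD1-Veh points lie above both WT-Veh points for Sod1, Lpl, Csf1, Cd63, Ccl4 and Gpr17 and below both for Meg3, Snhg11, Miat, Apod, Mt2, Apol11b and Elane.

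Genes on the neuron list mostly had the same sign without passing the test. Of 26 genes on the neuron list, 18 were tested, 1 was positive, none was called and the median log2 fold change was -1.004, against -0.01 and 49.3% positive over all genes tested. The summed CPM of the list was 1089 and 2447 in WT-Veh and 906 and 769 in SOD1-Veh, with WT-Veh 2 apart from the rest. Rbfox3, the nuclear antigen NeuN, gave -2.77 ± 0.64 (adjusted p = 0.16) and Sv2a, a synaptic vesicle protein, -2.18 ± 0.48 (0.152). Syt7, a calcium sensor of exocytosis, had 17 and 50 UMIs in WT-Veh and 4 and 0 in SOD1-Veh (-3.57, 0.152). Of the other genes with the smallest p, Peg3, an imprinted zinc-finger gene, gave -3.09 ± 0.60 (0.115), Unc80, a subunit of a sodium leak channel complex, -2.76 ± 0.59 (0.152), Cntnap1, an axonal protein of the paranode, -3.62 ± 0.75 (0.151), and the cell adhesion gene L1cam -2.87 ± 0.66 (0.16). Each of these 7 genes was lower in both SOD1-Veh libraries than in both WT-Veh libraries. They were named for their small p, which favours such a gap, and 17.7% of all genes tested had it with WT-Veh higher. Without WT-Veh 2 the median of the list was -0.39.

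Microglial genes of the disease-associated kind were mostly positive over the whole preparation. Of 25 tested, 24 were positive, 1 (Lpl) was called and the median was 0.55, with a summed CPM of 24729 and 18109.7 in WT-Veh and 25087 and 27039 in SOD1-Veh. Csf1, a growth factor for macrophages, reached 25.5 and 39.6 CPM in WT-Veh and 98.8 and 105 in SOD1-Veh (1.64 ± 0.36, adjusted p = 0.152). Cd63, a tetraspanin of late endosomes, reached 195 and 162 CPM in WT-Veh and 461 and 369 in SOD1-Veh (1.22 ± 0.28, 0.16), and the chemokine Ccl4 467 and 366 CPM in WT-Veh and 962 and 1157 in SOD1-Veh (1.35 ± 0.27, 0.143). Each of these 3 genes was higher in both SOD1-Veh libraries than in both WT-Veh libraries, but its adjusted p was above 0.05. They too were named for their small p, and 18.2% of all genes tested had such a gap with SOD1-Veh higher. Homeostatic microglial genes were balanced, with 13 of 27 positive and a median of -0.04. The share of microglia-like barcodes was 19.8% and 17.5% in WT-Veh and 21.8% and 20.7% in SOD1-Veh.

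Cytokine and lysosomal lists had smaller positive medians. In the TNF, interleukin-1 and NF-kB list 15 of 17 tested genes were positive with a median of 0.46 and none called. Tnf gave 1.06 ± 0.33 (adjusted p = 0.385), at 51.1 and 69.8 CPM in WT-Veh and 143 and 107 in SOD1-Veh. Il1a, another early cytokine of microglia, gave 0.57 ± 0.31 (0.689), and Il1b -0.68 ± 0.38 (0.694) with overlapping libraries. Rel, an NF-kB subunit, gave 1.65 ± 0.38 (0.16). In the lysosome list 21 of 26 were positive with a median of 0.25; Ctsb, a cathepsin protease, gave 0.88 ± 0.26 (0.325) and Cd68, a lysosomal membrane protein of macrophages, 0.97 ± 0.29 (0.357). Ftl1, the ferritin light chain, gave 1.32 ± 0.32 (0.214), while the iron and antioxidant list as a whole had a median of -0.12.

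Apoe, the main lipid carrier of the cord, reached 1156 and 957 CPM in WT-Veh and 2002 and 2016 in SOD1-Veh (0.93 ± 0.30, adjusted p = 0.399). Its 4 libraries did not overlap between groups. Trem2, the lipid-sensing receptor of microglia, reached 243 and 283 CPM in WT-Veh and 353 and 311 in SOD1-Veh (0.34 ± 0.29, 0.816), and Gfap, the intermediate filament of reactive astrocytes, 63.8 and 69.8 CPM in WT-Veh and 80.0 and 110.2 in SOD1-Veh (0.50 ± 0.32, 0.75). Ripk1, the kinase inhibited in the other arm of the study, had 18 and 8 UMIs in WT-Veh and 15 and 8 in SOD1-Veh (0.27 ± 0.53, 0.941), with overlapping libraries. Its partners in necroptosis were too low to test: Ripk3 had 1 and 2 UMIs in WT-Veh and 5 and 2 in SOD1-Veh, and Mlkl, the pore-forming executor, 0 and 5 UMIs in WT-Veh and 0 and 0 in SOD1-Veh. At this depth no difference in these genes was detectable. The list of necroptosis genes had 7 of 10 tested members positive, a median of 0.20 and none called.

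B-cell genes were positive throughout. All 17 tested genes of the B-cell list were positive, with a median of 1.06 and none called, and a summed CPM of 2152 and 1689.6 in WT-Veh and 2924 and 4729.6 in SOD1-Veh. Fam129c, a gene of B lymphocytes, reached 25.5 and 22.7 CPM in WT-Veh and 75.3 and 102 in SOD1-Veh (1.86 ± 0.38, adjusted p = 0.143). Cd72, a B-cell co-receptor, gave 1.95 ± 0.44 (0.152), the transcription factor Pax5 1.28 ± 0.36 (0.287) and the adaptor Blnk 1.36 ± 0.38 (0.287). Iglv1, an immunoglobulin lambda variable segment, had 6 and 1 UMIs in WT-Veh and 15 and 25 in SOD1-Veh (2.94 ± 0.68, 0.16). B cell-like barcodes moved with these genes, at 9.71% and 5.78% of kept barcodes in WT-Veh, against 15% and 20.2% for SOD1-Veh. Their part in these values was not tested.

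The other classes are given as shares of kept barcodes, with no test, since an exact permutation test of 2 libraries against 2 cannot go below p = 0.3333. Of 20 clusters, 18 were named from markers, in 13 classes, and class names here stand for such marker-based, cell-like groups. Markers of neural cells were found, and blood and marrow-like barcodes made up 55.5% and 35.02% of WT-Veh barcodes and 54.5% and 59.0% of SOD1-Veh barcodes. Neutrophil-like barcodes were 17.9% and 11.2% in WT-Veh and 13.4% and 12.8% in SOD1-Veh, and erythroid-like barcodes 15.5% and 9.93% against 15.8% and 16.2%. Astrocyte-like barcodes were 5.83% and 5.42% in WT-Veh and 6.05% and 4.52% in SOD1-Veh. Oligodendrocyte precursor-like barcodes were 0.971% and 0.903% in WT-Veh and 3.16% and 1.60% in SOD1-Veh, from 5, 5, 12 and 6 barcodes. T or NK cell-like barcodes were 2.33% and 1.99% in WT-Veh and 2.63% and 2.39% in SOD1-Veh. B cell-like, T or NK cell-like, neuron-like, microglia-like, erythroid-like and oligodendrocyte precursor-like shares did not overlap between the groups. Such a gap is common in 2 against 2, as in 35.9% of the genes tested over all kept barcodes. For T or NK cell-like barcodes it was 2.33% against 2.39%, from 12 and 11 barcodes in WT-Veh and 10 and 9 in SOD1-Veh. For erythroid-like barcodes the overlap returned with doublets removed, at 14.57% and 9.11% in WT-Veh against 14.59% and 14.48%, and with coarser clusters. The many neuron-like barcodes of WT-Veh 2 lower every other share in that library. Neuron-like barcodes numbered 33 and 163 in WT-Veh and 13 and 7 in SOD1-Veh. Microglia-like barcodes numbered 102 and 97 in WT-Veh and 83 and 78 in SOD1-Veh. Erythroid-like barcodes numbered 80 and 55 against 60 and 61, and B cell-like barcodes 50 and 32 against 57 and 76. Shares with neuron-like barcodes left out of the total were not computed, and the part of that effect in these gaps was not tested.

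**Figure D3:**
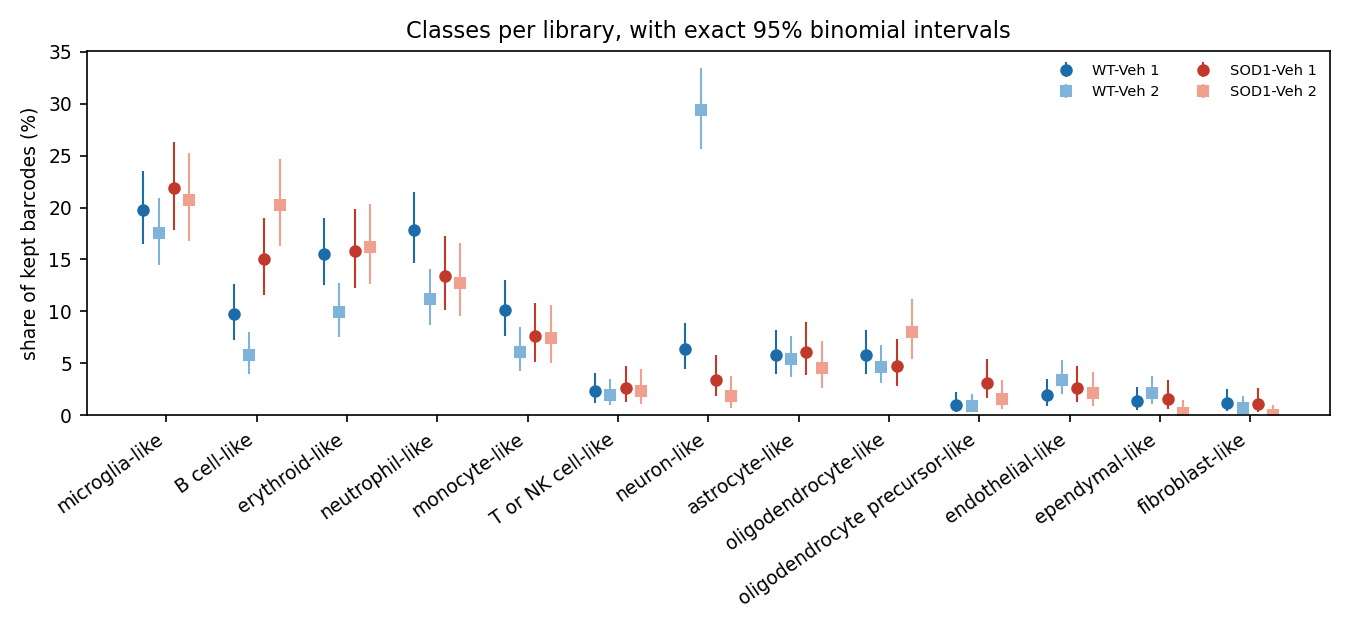
Share of kept barcodes (%) in each of 13 marker-named classes, 1 point per library with its exact 95% binomial interval, which covers counting error only. Neuron-like barcodes reach 29.4% in WT-Veh 2 and 1.86 to 6.41% in the other 3 libraries, and B cell-like barcodes are 15% and 20.2% in SOD1-Veh against 9.71% and 5.78% in WT-Veh.

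Leaving out neuron-rich barcodes brought some microglial and granulocyte genes and the metallothionein gene Mt2 past the test. Barcodes with 3 or more UMIs over 12 neuron markers, Meg3, Miat and Snhg11 among them, numbered 84 and 233 in WT-Veh and 21 and 18 in SOD1-Veh. They were 16.3% and 42.1% of kept barcodes in WT-Veh and 5.53% and 4.79% in SOD1-Veh. Neuron-like barcodes were fewer, at 33 and 163 in WT-Veh and 13 and 7 in SOD1-Veh. Barcodes of other classes were thus removed too, unequally between the groups, and their part in the calls was not tested. Without them 20 of 6192 genes were called (0.323%), 10 higher and 10 lower, of which 5 were among the 6 called before. Csf1 rose (1.83 ± 0.37, adjusted p = 0.0214), as did Ccl4 (1.01 ± 0.22, 0.0466) and Ftl1 (1.14 ± 0.25, 0.0466). Mt2, a zinc-binding metallothionein, fell (-1.49 ± 0.24, 0.00259), as did Lcn2, an iron-scavenging lipocalin of neutrophil granules (-1.31 ± 0.22, 0.00308), Elane, the neutrophil elastase of myeloid progenitors (-3.67 ± 0.64, 0.0063), and Apol11b, an apolipoprotein L gene (-2.26 ± 0.40, 0.0063). Meg3 and Snhg11, whose UMIs the removal used, were at -2.75 ± 0.37 (0.000408) and -2.16 ± 0.47 (0.0456), and Miat was too low to test. Lpl was at 2.87 ± 0.47 (0.00308). The median of the neuron list was then -0.13, with 4 of 10 tested genes positive.

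Some genes with the smallest p are copies of ribosomal protein genes or other processed pseudogenes. Gm10269, a processed pseudogene, reached 135 and 138 CPM in WT-Veh and 334 and 507 in SOD1-Veh (1.62 ± 0.31, adjusted p = 0.114), and Rpl36-ps3, also a processed pseudogene, gave 1.91 ± 0.43 (0.152). With neuron-rich barcodes left out both rose, Gm10269 by 1.45 ± 0.27 (0.0129) and Rpl36-ps3 by 1.88 ± 0.37 (0.0162). Reads of near-identical copies can be split between genes by the authors' counting, so these values are uncertain. Gm10269 was spread over B cell-like, erythroid-like, microglia-like and monocyte-like barcodes, with 23.9%, 21.4%, 17.8% and 16.9% of its UMIs.

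Within microglia-like barcodes (102 and 97 of WT-Veh against 83 and 78 of SOD1-Veh), 12 disease-associated genes passed the test. These barcodes formed a cluster led by chemokine and immediate-early genes such as Ccl3, Atf3 and Jun (67 and 65 barcodes of WT-Veh against 50 and 55 of SOD1-Veh) and a cluster led by C1qb, P2ry12 and Trem2 (35 and 32 against 33 and 23). Of 1562 genes tested 30 were called (1.92%), 21 higher (1.34%) and 9 lower (0.576%). Of 23 tested disease-associated genes 12 rose and none fell, with a median log2 fold change of 1.03 against 0.03 and 51.7% positive over all genes tested there. Of the 27 homeostatic genes 6 were positive, with a median of -0.33, and 1 fell: Siglech, a lectin (-0.96 ± 0.22, adjusted p = 0.00794). Apoe was 748 and 573 CPM in WT-Veh and 3185 and 4324 in SOD1-Veh there, and rose 5.68-fold (2.51 ± 0.27, 5.79e-08). Only 25.7% of Apoe UMIs over kept barcodes were in this class, and astrocyte-like barcodes, with 21.4%, had a class CPM of 11544 and 8993 in WT-Veh and 10805 and 11806 in SOD1-Veh.

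Several of these genes had few or no UMIs in WT-Veh microglia-like barcodes. Lgals3, the galectin of activated macrophages, had 2 and 0 UMIs in WT-Veh and 56 and 23 in SOD1-Veh, a ratio of summed counts of 42.3 (95% interval 11.3 to 355) with adjusted p = 2.69e-07. Spp1, osteopontin, had 0 and 2 UMIs in WT-Veh and 35 and 4 in SOD1-Veh, a ratio of 20.9 (95% interval 5.41 to 179) with adjusted p = 0.00158, and was no longer called without SOD1-Veh 1, the library with most of its UMIs (2.12, 0.601). Lpl had 8 and 0 UMIs in WT-Veh and 28 and 30 in SOD1-Veh (2.92 ± 0.53, 5.50e-04). Of the 35 Lpl UMIs in kept barcodes of SOD1-Veh 2, 30 were in this class and a single barcode held 20. For Lgals3, Spp1 and Lpl both SOD1-Veh libraries were above both of WT-Veh. Cd74, the invariant chain of class II antigen presentation, had 1 and 3 UMIs in WT-Veh and 11 and 14 in SOD1-Veh (2.68 ± 0.72, 0.0413). Its call was lost without SOD1-Veh 2 (2.29), WT-Veh 1 (2.20) or WT-Veh 2 (3.47). The class II genes H2-Aa and H2-Eb1 did not rise with Cd74 in these barcodes. H2-Aa had 0 and 2 UMIs in WT-Veh and 0 and 0 in SOD1-Veh, and H2-Eb1 had 0 in both groups.

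Other microglia-like calls covered surface, signalling and ribosomal genes, and most of those named here were lost when 1 library was left out. The log2 fold changes given for those fits kept their sign. Rpl35, a protein of the large ribosomal subunit, reached 511 and 539.9 CPM in WT-Veh and 1207 and 1199 in SOD1-Veh and rose 2.28-fold (adjusted p = 0.00148); it was called without any 1 of the 4 libraries. Rpl41, of the same subunit, rose 1.92-fold (0.00541) and was not called without WT-Veh 2 (0.82). Cd9, a tetraspanin, reached 836 and 639 CPM in WT-Veh and 1453 and 1256 in SOD1-Veh and rose 1.85-fold (0.0312), with no call without SOD1-Veh 1 (0.75) or WT-Veh 2 (0.65). Ly6e, an interferon-inducible surface protein, fell 1.74-fold (0.0493) and was not called without SOD1-Veh 1 (-0.70), WT-Veh 1 (-0.76) or WT-Veh 2 (-0.91). Ubn1, a histone chaperone subunit, fell 3.3-fold (0.0493) and was not called without any 1 of the 4 libraries (-1.69 to -1.82). Siglech was not called without WT-Veh 1 (-0.86).

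RNA of other cells moved with the groups inside this class. Haemoglobin genes, which microglia do not make, fell in SOD1-Veh. Hbb-bs was 11585 and 8495 CPM in WT-Veh and 1598 and 3197 in SOD1-Veh (-2.08 ± 0.25, adjusted p = 2.46e-07), and Hba-a1 3691 and 3019 CPM in WT-Veh and 469 and 842 in SOD1-Veh (-2.38 ± 0.26, 6.48e-08). In free RNA both SOD1-Veh libraries were also below both WT-Veh libraries, with Hbb-bs at a CPM of 273386 and 257268 in WT-Veh and 175323 and 142951 in SOD1-Veh. Meg3, an RNA of neurons, had 27 and 66 UMIs in WT-Veh and 0 and 4 in SOD1-Veh in microglia-like barcodes (-4.33 ± 0.59, 3.32e-06), again in the order of its free RNA. Their part in the other microglia-like calls was not tested.

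**Figure D4:**
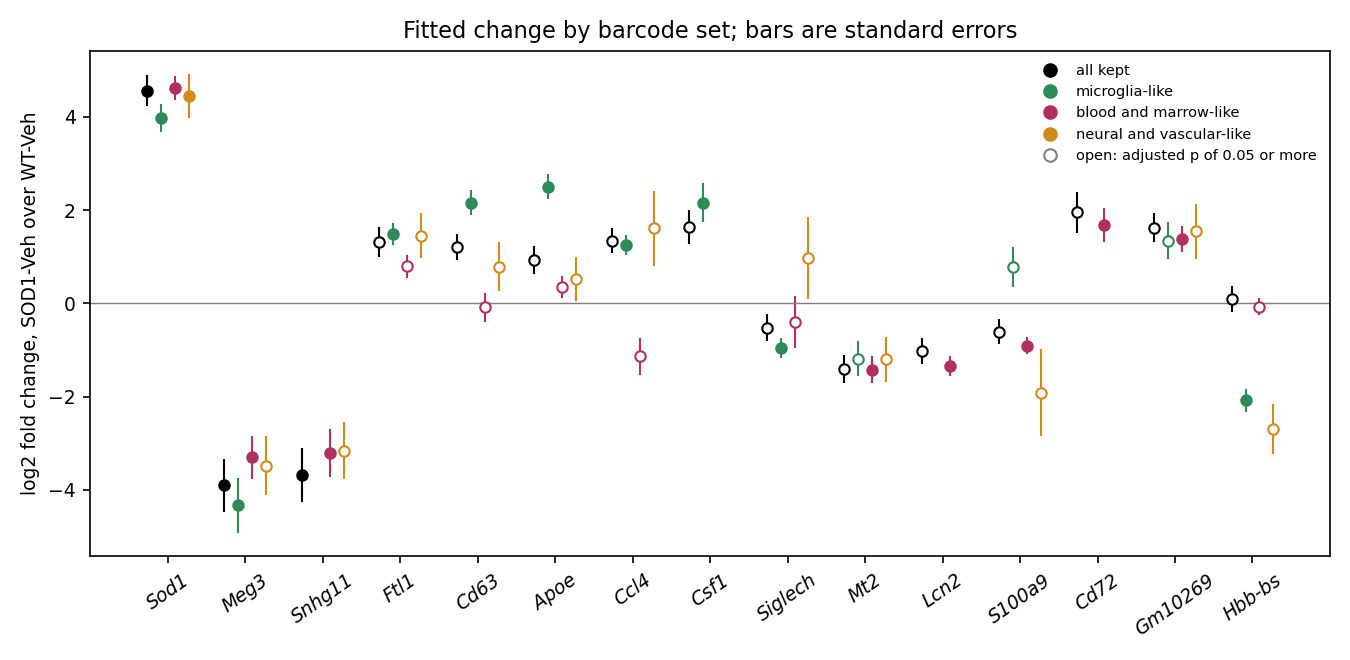
Log2 fold change of SOD1-Veh over WT-Veh with its standard error for 15 genes, fitted over all kept barcodes, microglia-like, blood and marrow-like, and neural and vascular-like barcodes; open points have an adjusted p of 0.05 or more, and a missing point was too low to test. Sod1 is between 3.98 and 4.62 in every set, and Apoe and Cd63 pass in microglia-like barcodes alone.

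Blood and marrow-like barcodes (286 and 194 of WT-Veh against 207 and 222 of SOD1-Veh) gave 20 calls among 3991 genes (0.501%), 6 higher (0.15%) and 14 lower (0.351%). The genes that fell included granulocyte genes and the neuronal RNAs Meg3 and Snhg11, and those that rose included B-cell genes. In the neutrophil list of secondary granule and late genes, 0 of 15 tested were positive, 4 fell and the median was -0.68, against -0.03 over all genes tested in these barcodes. Lcn2 reached 2320.2 and 3118 CPM in WT-Veh and 1229.5 and 909 in SOD1-Veh and fell 2.53-fold (adjusted p = 6.43e-04). S100a9 and S100a8, which form the calprotectin complex of neutrophils, fell 1.87-fold (0.014) and 1.78-fold (0.0189), with S100a9 at 37587 and 42325 CPM in WT-Veh and 24878 and 17827 in SOD1-Veh. Neither was called without WT-Veh 1 (-0.97 and -0.86) or WT-Veh 2 (-0.78 and -0.75), while Lcn2 was called without any 1 of the 4 libraries. In Lcn2 and S100a9 both SOD1-Veh libraries were below both WT-Veh libraries.

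The share of granulocytes in these barcodes moved with the genes. Neutrophil-like barcodes numbered 92 of 286 and 62 of 194 in WT-Veh and 51 of 207 and 48 of 222 in SOD1-Veh, and B cell-like barcodes 50 and 32 against 57 and 76. Within neutrophil-like barcodes the class CPM of Lcn2 was 8753 and 10385 in WT-Veh and 6165 and 5768 in SOD1-Veh. That of S100a9 was 137636 and 140957 in WT-Veh and 124323 and 114071 in SOD1-Veh, and neither overlapped between groups. The cluster rich in Lcn2, Camp and Ltf and the one rich in Cxcr2 and Retnlg were unequally filled, with 43 and 36 barcodes of the first in WT-Veh and 17 and 15 in SOD1-Veh, and 49 and 26 of the second against 34 and 33. These genes helped to form the clusters, and the part of this makeup in the calls was not tested. Elane had 109 and 17 UMIs in WT-Veh and 1 and 7 in SOD1-Veh and fell (-3.65 ± 0.58, 5.69e-04), but 69 of its 109 UMIs in WT-Veh 1 were in 1 barcode, and leaving WT-Veh 1 out ended its call (-2.33, adjusted p = 0.212).

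Among higher genes of blood and marrow-like barcodes, Cd72 reached 65.9 and 55.6 CPM in WT-Veh and 126 and 277 in SOD1-Veh (1.69 ± 0.36, adjusted p = 0.0171) and Fam129c 37.2 and 55.6 CPM in WT-Veh and 126 and 160.2 in SOD1-Veh (1.67 ± 0.37, 0.0189). Iglv1 (2.68 ± 0.60, 0.021) and Herpud1, a gene of the endoplasmic reticulum stress response (1.58 ± 0.35, 0.0189), also rose. All 17 tested genes of the B-cell list were positive there, with a median of 0.85. Cd72 was not called without SOD1-Veh 2 (1.07) or WT-Veh 1 (1.85), nor Fam129c (1.54 and 1.37) and Iglv1 (2.24 and 3.94); Herpud1 was not called without SOD1-Veh 1 (1.42) or WT-Veh 1 (1.28).

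Apol11b was almost confined to erythroid-like barcodes, which held 96.1% of its UMIs. It had 52 and 52 UMIs in WT-Veh and 10 and 9 in SOD1-Veh in blood and marrow-like barcodes and fell 5.03-fold (-2.33 ± 0.41, adjusted p = 0.00168). Both SOD1-Veh libraries were below both WT-Veh libraries, as in free RNA, where its CPM was 47.5 and 46.3 in WT-Veh and 10.8 and 9.51 in SOD1-Veh. Its UMIs came from 14 and 15 barcodes in WT-Veh and 6 and 5 in SOD1-Veh.

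Metallothioneins bind zinc and copper and respond to metal and glucocorticoids, and Mt2 was low in SOD1-Veh. Over all kept barcodes Mt2 reached 722 and 591 CPM in WT-Veh and 263 and 231 in SOD1-Veh (-1.41 ± 0.31, adjusted p = 0.152), and Mt1 gave -0.55 ± 0.26 (0.627). In blood and marrow-like barcodes Mt2 fell (-1.42 ± 0.29, 0.00948), a call lost without SOD1-Veh 2 (-1.32) or WT-Veh 1 (-1.16). In astrocyte-like barcodes, which held 28.2% of its UMIs, the class CPM of Mt2 was 6675 and 5203 in WT-Veh and 1733 and 2624 in SOD1-Veh. Both SOD1-Veh libraries were below both WT-Veh libraries. In free RNA its CPM was 676 and 748 in WT-Veh and 590.3 and 679 in SOD1-Veh, with the groups overlapping. Mt1 there was at 2022 and 1706 in WT-Veh and 2433 and 2790.5 in SOD1-Veh, with SOD1-Veh higher.

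Neural and vascular-like barcodes (121 and 259 of WT-Veh against 86 and 69 of SOD1-Veh) gave 1 call among 2459 genes (0.0407%), Sod1 (4.45 ± 0.48, adjusted p = 0.00216). Meg3 gave -3.48 ± 0.64 (0.116) and Mt2 -1.20 ± 0.49 (0.615). Neuron-like barcodes were 163 of the 259 in WT-Veh 2, and left out, which was chosen after seeing the data, Sod1 was again the 1 call. Without WT-Veh 1, 57 genes were called, without WT-Veh 2, 9, and without SOD1-Veh 2, 5, so this count rests on single libraries.

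Named genes of these classes are therefore given as values over all kept barcodes. Gpr17, a receptor of oligodendrocyte precursors about to differentiate, had 0 and 3 UMIs in WT-Veh and 22 and 14 in SOD1-Veh, all in oligodendrocyte precursor-like barcodes, from 2 barcodes in WT-Veh and 5 and 3 in SOD1-Veh with a ratio of summed counts of 16.2 (95% interval 5.11 to 82.1) and adjusted p = 0.152. Apod, a lipocalin of oligodendrocytes, reached 832 and 1136 CPM in WT-Veh and 383 and 391 in SOD1-Veh (-1.34 ± 0.29, 0.152); oligodendrocyte-like barcodes held 92.2% of it, and 1 barcode held 254 of the 602 UMIs in WT-Veh 2. Gja1, the astrocyte gap junction protein connexin 43, gave -1.06 ± 0.32 (0.354), and Hsph1, a heat shock chaperone, -1.72 ± 0.44 (0.257). Mgp and Dcn, matrix genes of meningeal fibroblasts, gave -2.03 ± 0.58 (0.287) and -2.69 ± 0.74 (0.287), with 6 and 4 fibroblast-like barcodes in WT-Veh and 4 and 0 in SOD1-Veh.

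Several other lists gave no call over all kept barcodes. Cell division genes had 18 of 22 positive with a median of 0.45, among them Top2a, a topoisomerase of dividing cells (0.89 ± 0.30, adjusted p = 0.405). Nuclear-encoded oxidative phosphorylation genes had 35 of 39 positive with a median of 0.19, and 21 of 39 with a median of 0.02 without WT-Veh 2. Class II antigen presentation genes had a median of 0.62, complement genes 0.07, interferon response genes -0.24, astrocyte genes -0.25, myelin genes -0.08 and genes of the unfolded protein response 0.15. Genes induced by dissociation, a sign of handling, had a median of 0.13.

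**Figure D5:**
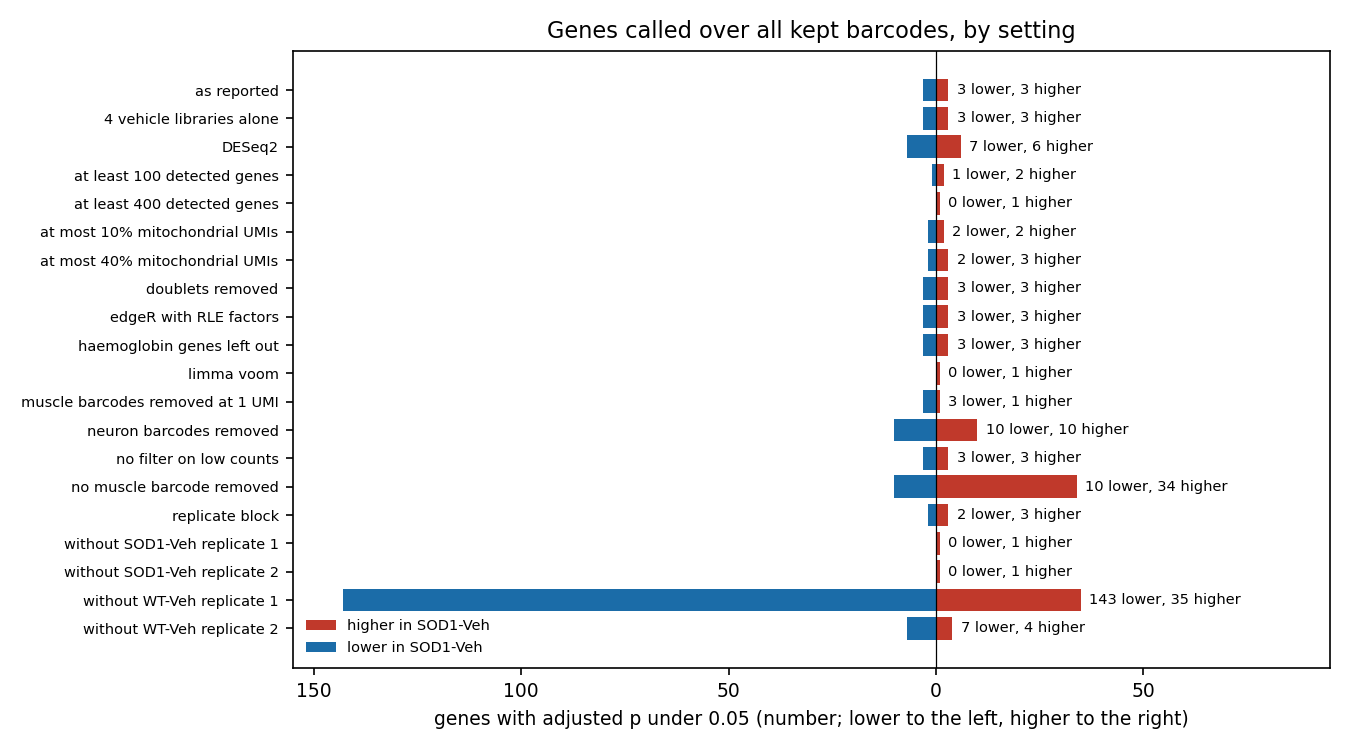
Number of genes called over all kept barcodes, lower in SOD1-Veh to the left and higher to the right, as reported and under each other setting. The count is 3 lower and 3 higher as reported, and 143 lower and 35 higher without WT-Veh 1.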

How the data were processed

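For each library the authors deposited raw UMI counts, with genes by symbol in rows and barcodes in columns, and every value was a whole number. Per the submitters' processing notes the genome build was mm9; for the aligner and annotation, the sources used here give nothing. The tables list 18169 or 18650 genes, and the 17042 in all of them were used. Free RNA means barcodes with under 100 genes.

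Kept barcodes were scaled to 10000 counts, and clustered in scanpy 1.11.5 (2000 variable genes, 30 components, 15 neighbours, leidenalg 0.10.2 at resolution 1). Doublets were marked with Scrublet (24 of 3280 kept barcodes in 6 libraries) and left in. UMI counts were summed per library and tested with edgeR 4.0.16 in R 4.3.3 (quasi-likelihood F test, TMM factors, filterByExpr, 6 libraries in 1 fit, Benjamini-Hochberg adjustment over all genes tested, called below 0.05), on classes joined into 3 sets. Adjusted p-values are from that test. The ± after a log2 fold change is its standard error. Ratios of counts with 1 to 3 UMIs in a group have exact intervals, which cover counting error only.

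Named genes were the 15 with the largest change or smallest p in each direction, the 3 with the smallest p of each of 41 lists, up to 8 called genes per direction in each set of classes, and Sod1, Apoe, Trem2, Tnf, Il1a, Il1b, Ripk1, Ripk3, Mlkl, Meg3 and Gfap. Called genes outside this rule (Cd9, Rpl35, Rpl41 and S100a8) were chosen after their values were seen. The comparison and the lists were chosen with earlier results of these data known. The fits were tested on simulated data. Alternatives used DESeq2 1.42.0, limma 3.58.1, other limits on barcodes, and leaving out each library. A called gene counted in the totals is not reported here.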

Additional observations from a re-analysis of the deposited data

Results flagged for a closer look

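Muscle barcodes lie outside the comparison and were found in SOD1-Veh alone. The rule removed 19 barcodes from SOD1-Veh 1 and 61 from SOD1-Veh 2, against 0 in both WT-Veh libraries and both libraries given Necrostatin-1s. Barcodes with under 100 genes, which entered no test, held 104 UMIs of the 7 muscle genes in SOD1-Veh 1 and 332 in SOD1-Veh 2, against 2 and 0 in WT-Veh. Where this RNA came from was not tested.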

How the results depend on the processing

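Over all kept barcodes, 6 calls became 13 with DESeq2, 1 with limma voom, 3 with at least 100 detected genes, 1 with at least 400, 20 without neuron-rich barcodes and 44 with muscle barcodes; leaving out 1 library gave 1 to 178. RLE factors, no filter on low counts, the 4 vehicle libraries alone, removal of doublets and leaving out haemoglobin genes each gave 6 calls, with all 6 genes shared. Microglia-like calls went from 30 to 15 with DESeq2, which gave no adjusted p for 2 of them, and ranged from 21 to 30 without 1 library. Blood and marrow-like calls went from 20 to 8 with DESeq2 (no adjusted p for 9), 8 in the vehicle libraries alone and 31 with no filter, and from 9 to 70 without 1 library. Neural and vascular-like calls went from 1 to 9 with DESeq2, 9 in the vehicle libraries alone and 32 with no filter, and from 1 to 57 without 1 library. Of 16425 genes with counts, 7509 were deep enough to test over all kept barcodes. The causes were not tested, except that fewer libraries leave fewer residual degrees of freedom.

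With the replicate number as a block, calls were 5, 27, 17 and 1 in the same order, and Snhg11 was -3.55 (adjusted p = 0.0572). Differences between replicates correlated at -0.15 between WT-Veh and SOD1-Veh, -0.26 between WT-Veh and SOD1-Nec and 0.16 between SOD1-Veh and SOD1-Nec. Libraries numbered 1 each listed 18169 genes, and those numbered 2 each listed 18650. The labels name no batch, and whether an equal number marks shared handling was not tested.

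The sign of Trem2 turned (-0.017) without neuron-rich barcodes, as did that of Il1b without WT-Veh 1, with a range of -1.15 to 0.064 when 1 library was left out. Ripk1 turned to -0.087 with at least 400 genes and -0.027 without neuron-rich barcodes, and ranged from -0.18 to 0.97 without 1 library. Pvalb was -0.15 with up to 40% mitochondrial UMIs and -0.84 to 1.23 without 1 library, and Pygm was 1.92 with muscle barcodes left in. None of these 5 genes was called as reported. At Leiden resolution 0.5, mean shares were 2.91% of SOD1-Veh and 2.44% of WT-Veh barcodes for T or NK cell-like, 19.97% and 17.3% for erythroid-like and 8.86% of SOD1-Veh for monocyte-like barcodes. No astrocyte-like cluster formed there, and the larger erythroid-like cluster was led by astrocyte genes (Slc7a10, Cldn10, Gja1), so its share is not of erythroid cells alone. Single erythroid-like shares were then 20.4% and 14.3% in WT-Veh and 20.8% and 19.1% in SOD1-Veh. Without doublets they were 3.33% and 2.55% for T or NK cell-like, 14.5% of SOD1-Veh for erythroid-like and 0.856% of WT-Veh for oligodendrocyte precursor-like barcodes.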
